A study of Rattus norvegicus with 12 samples.

Results

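The left atrium was compared between rats carrying an aorto-caval shunt and sham-operated rats. All atrial arrays of the series were used, 6 of 12: the 3 arrays of shunt rats against the 3 arrays of sham rats, with every probe set that is not a manufacturer's control, 31042 of 31099. The shunt joins the aorta to the vena cava and loads the heart with extra volume, and tissue was taken at 28 days. The rats were male Sprague Dawley animals of 225 to 275 g, killed by decapitation, and the tissue was snap-frozen. Each array measured RNA from 1 pool of 2 left atrial appendages. The other 6 arrays measured left ventricular free wall from shunt and sham rats in the same pooled design. The only difference named between shunt and sham groups is the operation, pooling hides the spread between single rats, and no haemodynamic value for any pool was used here. The pools are described as biological replicates, so the p-values measure the spread between pools. That spread is estimated over all 12 arrays, ventricle included, so an atrial standard error is not set by the atrial pools alone.

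The atrial appendage is a thin muscular pouch that stretches when filling pressure or volume rises. Its myocytes store and secrete natriuretic peptides, run on an alpha-myosin heavy chain with their own light chains, and repolarise faster than ventricular myocytes. Volume load of the heart is known to enlarge the chambers, to bring back fetal isoforms of contractile proteins, to alter matrix and ion channel genes and to shift fuel use away from fatty acids. Array values are RMA values on a log2 scale, on which a difference of 1 is a 2-fold change. A value is used here to compare samples for the same probe set, never to rank genes by abundance.

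The arrays carried atrial tissue by its own markers. In sham rats the atrial isoforms Nppa, Sln, Myl4 and Myl7 had mean log2 values of 14.15, 13.05, 13.36 and 13.80, against 9.97, 5.02, 5.30 and 7.08 in ventricle. The ventricular light chain Myl2 read 4.52 in sham atrium and 13.63 in sham ventricle. Values of atrial arrays correlated at 0.983 to 0.996 within a group and at 0.984 to 0.991 between shunt and sham, and no array pair was identical.

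One atrial shunt array stood apart from the rest. Over all probe sets, the root mean square distance of shunt array 3 from its group was 0.200, against 0.130 and 0.148 on the other shunt arrays and 0.0913 to 0.110 on the sham arrays. The hexokinase controls, whose 3′ end reads higher than the 5′ end when RNA is degraded, gave the largest such gap there, at 1.44 against 0.80 and 0.94 on the other shunt arrays and 1.01 to 1.10 on the sham arrays. For some of the results that this array moves, the value without it is given beside the value with it.

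Of 10606 genes, each represented by its brightest tested probe set, 62 rose (0.585%) and 86 fell (0.811%) with a limma adjusted p under 0.05. These came from 243 of 18625 probe sets tested (1.30%). The shares of 0.585% and 0.811% are to be set beside each count of a gene list below. The median difference over all genes was -0.008, with quartiles of -0.09 and 0.08, and 4992 genes had a positive and 5614 a negative difference. Among the genes that passed, 11 rose by at least 1 on the log2 scale, 13 fell by at least 1, and the smallest change was 0.25. Shunt and sham arrays did not overlap for any of the 148, but that held for 2312 of all genes (21.8%), so separation of the arrays is by itself common. In bulk tissue fewer cells of a type and less RNA per cell cannot be told apart, and this holds for every gene below.

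**Figure D1:**
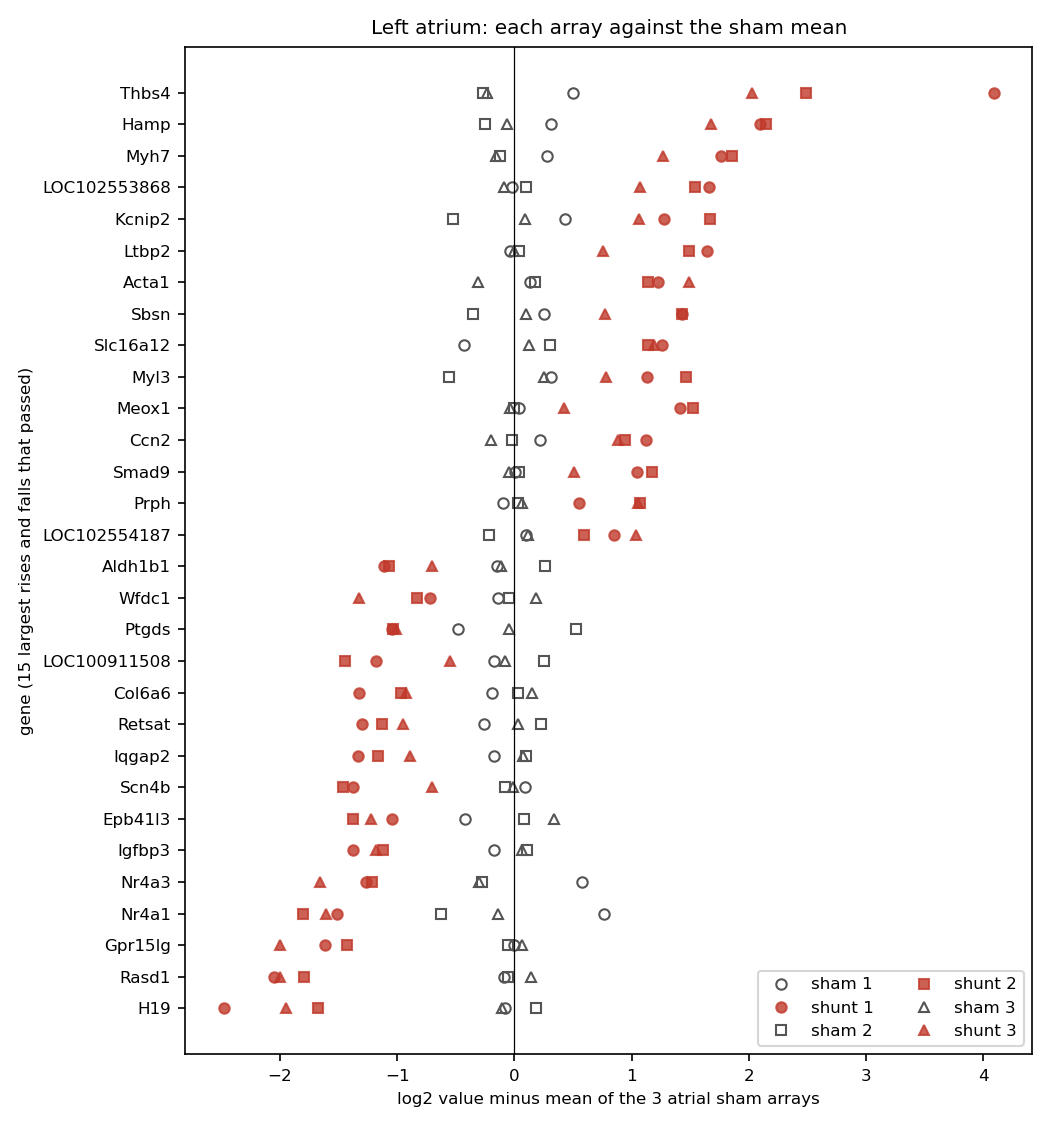
Log2 values of the 15 largest rises and 15 largest falls that passed, each shown as the difference from the mean of the 3 atrial sham arrays (horizontal axis, log2); open symbols are sham arrays, filled red symbols are shunt arrays, and the marker shape gives the replicate number. Thbs4 shows the widest spread among the shunt arrays, and shunt array 3 (triangles) lies nearest to sham for Ltbp2, Meox1, Smad9 and Scn4b.

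Myh7, Acta1 and Myl3, contractile genes of slow or skeletal type, rose. Myh7, the beta-myosin heavy chain of ventricle and slow muscle, read 7.31, 6.91 and 6.87 in the sham pools and 8.79, 8.89 and 8.30 in the shunt pools. Every shunt pool lay above every sham pool by about 1 or more, a 3.10-fold rise (log2 difference 1.63 ± 0.18, SE, n = 3 per group, limma adjusted p = 0.00228). The difference stayed between 1.51 and 1.81 when any 1 of the 12 arrays was left out, and passed each time. Acta1, skeletal alpha-actin, read 9.24, 9.28 and 8.80 in sham and 10.33, 10.25 and 10.60 in shunt pools. It rose 2.44-fold (1.29 ± 0.17, adjusted p = 0.00536), and here shunt array 3 was the highest of the group, not the lowest. Myl3, the essential light chain of ventricular and slow muscle, read 7.88, 7.01 and 7.82 in sham and 8.70, 9.03 and 8.35 in shunt pools. It rose 2.18-fold (1.13 ± 0.21, adjusted p = 0.0256), with sham array 2 well below its group. Its call was lost without shunt array 1 (1.12, adjusted p = 0.0779), shunt array 2 (0.96, adjusted p = 0.0889) or sham array 3 (1.25, adjusted p = 0.0548).

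The 3 rises of the thick filament list were Myh7, Myl3 and Myl9, the regulatory light chain of smooth muscle and non-muscle myosin, which rose by 0.51 ± 0.10. They were 3 of its 15 genes measured, against 0.585% of all genes that rose, and no member fell. The list's median was -0.02 against -0.008 over all genes, so the list as a whole was centred near all genes. Myh6, the alpha heavy chain that dominates adult rat myocytes, differed by 0.01 ± 0.06, and its values reached from 13.37 to 13.47, near the top of the array's range of 14.29. In the thin filament list Acta1 was the only 1 of 16 genes that passed, with a median of 0.02. Of 13 genes of the skeletal muscle list 2 rose and 0 fell, but 10 were negative, and the median was -0.07. A skeletal fast heavy chain probe set, annotated Myh1, rose by 0.53 ± 0.06, with sham pools at 10.31, 10.39 and 10.25 and shunt pools at 10.81, 10.85 and 10.90. Myosin heavy chain genes are close copies of each other, and of the gene's 4 other probe sets 3 passed and 1 disagreed in sign, so the gene behind this signal is uncertain.

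At the Z-disc and the costamere, the sites where force is passed to the membrane, 2 of 40 genes rose and 1 fell. Of all genes 0.585% rose and 0.811% fell. Synpo2l, a Z-disc protein, rose by 0.54 ± 0.10, and Ilk, the integrin-linked kinase of cell adhesions, by 0.31 ± 0.05. Ilk was even within both groups, at 9.58, 9.51 and 9.62 in sham and 9.88, 9.88 and 9.87 in shunt pools. Pdlim3, an actinin-binding protein, fell by 0.61 (SE 0.11), from 10.67, 10.67 and 10.54 to 9.73, 10.06 and 10.25. Outside the list, Abra, an actin-binding protein of striated muscle, fell by 0.41 (passing in only 1 of 12 leave-one-out fits), and Purb, a DNA-binding protein known as a repressor of muscle genes, by 0.43. The muscle ubiquitin ligase adaptors Klhl40, Klhl33 and Asb12 fell by 0.47, 0.74 and 0.50, while Fbxl22, an F-box protein of the cardiac Z-disc, rose by 0.67 ± 0.11.

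The promoters of Acta1 and Myl3 are shown because both genes rose and both hold a CArG box, the site bound by serum response factor. Sequences are those of RefSeq on GRCr8, from 250 bases before to 50 bases after the annotated start, in the direction of the gene. Capitals mark the CArG box, at -94 in Acta1 and -97 in Myl3 counted from the start, and the 6 letters CATTCC or their reverse complement GGAATG, the core of the MCAT element bound by TEAD factors, at -67 in Acta1 and at -189 and -161 in Myl3.
Acta1, chr19:68784145-68784444, minus strand: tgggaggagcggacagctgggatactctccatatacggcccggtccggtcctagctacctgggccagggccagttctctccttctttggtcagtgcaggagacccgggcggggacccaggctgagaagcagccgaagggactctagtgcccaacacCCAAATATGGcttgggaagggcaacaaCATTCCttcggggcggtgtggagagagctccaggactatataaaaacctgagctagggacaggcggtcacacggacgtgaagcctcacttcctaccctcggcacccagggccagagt
Myl3, chr8:119616844-119617143, plus strand: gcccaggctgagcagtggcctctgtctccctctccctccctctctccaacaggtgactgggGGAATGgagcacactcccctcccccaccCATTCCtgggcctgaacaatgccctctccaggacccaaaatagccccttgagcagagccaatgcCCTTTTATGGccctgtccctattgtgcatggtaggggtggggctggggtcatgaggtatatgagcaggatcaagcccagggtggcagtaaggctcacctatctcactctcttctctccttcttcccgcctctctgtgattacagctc
On both strands, a CArG box occurred in 1.64% of 33469 rat promoters of this length and CATTCC in 14.2%, and the searched motifs shared no base. Of the 30 largest changes, 23 had a promoter in the table, 13 that rose and 10 that fell. A CArG box was found in 2 of the 13, Acta1 and Myl3, and in 0 of the 10. CATTCC was found in 4 of the 13, Thbs4, Acta1, Myl3 and Ccn2, and in 3 of the 10, Nr4a1, Retsat and Col6a6. The cyclic AMP response element TGACGTCA was found in Sbsn alone (1.83% of all promoters) and the nuclear receptor half-site AAAGGTCA in Retsat alone (1.43%). A match is a description of letters in this window and not evidence of binding.

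Genes of the ventricular myocyte list moved both ways in the atrium. Of 20 measured members, 3 rose (Myh7, Myl3 and Kcnip2) and 3 fell (Scn4b, Kcnd2 and Kcnj12), against 0.585% and 0.811% of all genes. The median was -0.07. Not all members that passed were ventricular by these arrays. Kcnj12 read higher in sham atrium (5.60) than in sham ventricle (4.76), and Kcnd2 was only slightly lower (6.53 against 6.97). Myl2, the ventricular regulatory light chain, read 4.90, 4.16 and 4.50 in sham and 5.12, 5.67 and 4.91 in shunt atria, a difference of 0.71 ± 0.19 that did not pass (adjusted p = 0.0993). These atrial Myl2 values lie near the filter value of 4.01, and the probe set passed the filter through its ventricular values, so no atrial share of the ventricular level is given. On the linear scale Myl3 in sham and shunt atrium stood at 1.89% and 4.13% of its sham ventricular level, Kcnip2 at 6.39% and 16.1% and Myh7 at 8.36% and 25.9%. Scn4b, also high in ventricle, went the other way, from 12% to 5.3%, as did the muscle tubulin Tuba8, from 11.5% to 6.90%. Rpl3l, a ribosomal protein of striated muscle far higher in ventricle, was 0.60 lower in shunt atrium (SE 0.13, adjusted p = 0.0505), and Irx4, a ventricular transcription factor, 0.32 lower (adjusted p = 0.155), neither passing. Irx4 read 2.95 to 3.58 in the atrial arrays, below the filter value, and was tested because of its ventricular values. Rpl3l read 4.10 to 4.97 in the atrial arrays, near the filter value. Across the 6 atrial arrays Myl2, Myl3 and Kcnip2 shared the same lowest sham array, array 2, and the same highest shunt array, array 2. The summed linear level of the whole list was 20984 to 21956 in sham and 20591 to 21071 in shunt atria. This sum is weighted towards members that also read high in atrium, such as Pln (12.35 in sham atrium) and Ckm (12.51). It is therefore no measure of ventricular tissue, and the part of such tissue in any of these changes was not tested.

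**Figure D2:**
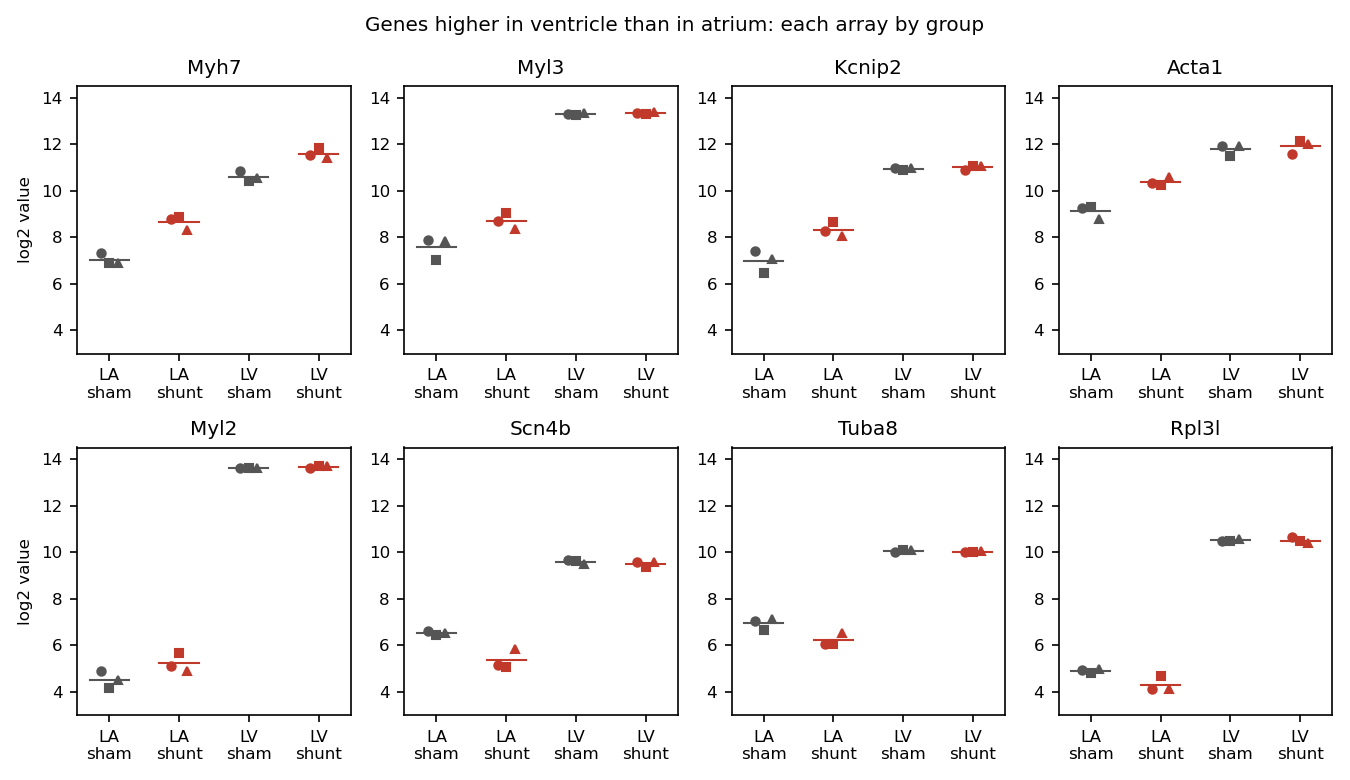
Log2 values of 8 genes that are higher in ventricle than in atrium, by group (LA, left atrium; LV, left ventricle); each symbol is 1 array, shaped by replicate number, and the line is the group mean. Shunt atria lie above sham atria for Myh7, Myl3, Kcnip2 and Acta1 and below them for Scn4b, Tuba8 and Rpl3l, while Myl2 stays between 4.16 and 5.67 in all atrial arrays.

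Ion channel genes changed in both directions. Kcnip2 encodes the accessory subunit of the Kv4 channels that carry the fast transient outward potassium current. It read 7.41, 6.46 and 7.07 in sham and 8.26, 8.65 and 8.04 in shunt pools, a 2.52-fold rise (1.33 ± 0.20, adjusted p = 0.0108), and a further probe set of the gene rose by 1.19. Kcnd2, which encodes the pore-forming Kv4.2, moved oppositely, from 6.47, 6.48 and 6.64 to 5.91, 5.94 and 5.82 (-0.64, SE 0.09, adjusted p = 0.00696). A further Kcnd2 probe set fell by 0.63. Kcnj12, which encodes the inward rectifier Kir2.2, fell by 0.80 (SE 0.12, adjusted p = 0.0113), from 5.45, 5.79 and 5.56 to 4.97, 4.91 and 4.52. These were the 3 of 25 potassium channel genes that passed, 1 higher and 2 lower, against 0.585% and 0.811% of all genes, and the list's median was 0.00.

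Among sodium and calcium channels and connexins, 1 of 26 genes rose and 3 fell, against 0.585% and 0.811% of all genes. The median was -0.03. Scn4b, a beta subunit of the cardiac sodium channel, fell 2.27-fold (-1.18 on the log2 scale, SE 0.16, adjusted p = 0.00563), from 6.62, 6.45 and 6.52 to 5.15, 5.07 and 5.83. Shunt arrays 1 and 2 were close together and array 3 lay about midway to sham. Cacna2d1, the alpha-2-delta subunit of the L-type calcium channel, fell by 0.37 and Fgf12, a modulator of sodium channels, by 0.42, the latter holding in 2 of the 12 fits. One of the other Fgf12 probe sets passed with a fall of 0.53, but the gene's probe sets disagreed in sign. Gja4, the endothelial connexin 37, rose by 0.58 ± 0.10. In calcium handling, Slc24a3, a sodium, calcium and potassium exchanger, was the only 1 of 42 genes that passed. It fell by 0.77 (SE 0.09, adjusted p = 0.00286) from 8.36, 8.54 and 8.51 to 7.55, 7.71 and 7.86, and passed in all 12 fits that left out 1 array. Atp2a2, the calcium pump of the sarcoplasmic reticulum, differed by -0.08 ± 0.05, and its inhibitors Pln and Sln each by 0.01 (SE 0.06 and 0.18), with Atp2a2, Pln and Sln not passing. Under a further quantile normalization Sln turned to -0.02 and Myh6 to -0.06, and under cyclic loess Pln turned to -0.01 and Myh6 to -0.02. Trpm7, a cation channel fused to a kinase, rose by 0.64 ± 0.08, from 7.05, 7.10 and 7.07 to 7.84, 7.68 and 7.60.

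Few hormone and receptor genes passed. In the natriuretic and vasoactive list 0 of 22 genes passed in limma at an adjusted p under 0.05, and 8 had an unadjusted p under 0.05, with a median of -0.02. Here and below, such unadjusted counts are given without the share of all genes that had one. None is therefore read as a result about its list. Nppb, which encodes B-type natriuretic peptide, read 12.32, 11.98 and 12.02 in sham and 12.76, 12.88 and 12.78 in shunt pools, higher in all 3 but just outside the threshold. Nppa had sham values of 14.18, 14.11 and 14.14 and shunt values of 14.29, 14.23 and 14.22, where 14.29 is the highest value on any array, and whether the probe set was saturated was not tested. Adra1d, an alpha-1 adrenergic receptor, fell by 0.41 (SE 0.09) but held in 2 of the 12 fits that left out 1 array. Its values, 4.53, 4.29 and 4.62 in sham and 4.03, 4.01 and 4.18 in shunt pools, lie near the filter value of 4.01. Also lower were S1pr3, a receptor for sphingosine 1-phosphate, and Lpar1, a receptor for lysophosphatidic acid, which each fell by 0.42 (SE 0.07). Chrm2, the muscarinic receptor through which the vagus slows the atrium, was 0.39 lower without passing (adjusted p = 0.0513). Among regulators of G protein signalling, Rgs3 rose by 0.45 ± 0.06 and Rasl11b by 0.60 ± 0.11 while Rasd1 fell. These were 2 higher and 1 lower of 24 genes, against 0.585% and 0.811% of all genes.

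Among matrix genes that passed, Thbs4, Ltbp2 and Ccn2 rose most. Thbs4, the matricellular protein thrombospondin 4, read 5.16, 4.40 and 4.43 in sham and 8.75, 7.15 and 6.69 in shunt pools. It had the largest change of any gene that passed by its brightest probe set, 7.27-fold (2.86 ± 0.40, adjusted p = 0.00696), and the shunt pools themselves differed by about as much as 2 on the log2 scale. Without shunt array 1 the difference was 2.25, and it still passed. Ltbp2, a microfibril protein related to the latency proteins of TGF-beta, rose 2.46-fold (1.30 ± 0.18, adjusted p = 0.00667), from 5.68, 5.76 and 5.72 to 7.36, 7.21 and 6.48. Its shunt array 3 lay at about the midpoint of sham and the other shunt arrays. Ccn2, connective tissue growth factor, a target of TGF-beta and of stretch, read 9.86, 9.62 and 9.44 in sham and 10.76, 10.58 and 10.52 in shunt pools (0.98 ± 0.20, adjusted p = 0.0436). The groups are apart, but the call was lost in 7 of the 12 fits that left out 1 array, with differences of 0.88 to 1.09 over the fits and the highest adjusted p, 0.175, without sham array 3.

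The Ccn2 promoter is shown because it holds the most CATTCC matches of the genes searched, at -166, -101 and -92, each in capitals.
Ccn2, chr1:22624565-22624864, minus strand: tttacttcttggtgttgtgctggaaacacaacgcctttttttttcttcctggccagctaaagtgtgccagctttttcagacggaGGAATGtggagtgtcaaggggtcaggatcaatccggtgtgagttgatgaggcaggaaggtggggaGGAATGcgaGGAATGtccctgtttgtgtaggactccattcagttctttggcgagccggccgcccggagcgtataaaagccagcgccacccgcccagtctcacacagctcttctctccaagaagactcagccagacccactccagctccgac
Thbs4, the largest rise, had 1 match, at -178, and neither gene had a CArG box in this window.

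In the matricellular list 3 of 30 genes rose and 0 fell, against 0.585% and 0.811% of all genes, with a median of 0.18. The third was Cthrc1, a secreted collagen-associated protein, by 0.37 ± 0.08, which passed in 1 of the 12 leave-one-out fits. Of 20 collagen chains Col4a2, a basement membrane chain, alone rose, by 0.55 ± 0.07 (adjusted p = 0.00536), from 9.23, 9.11 and 9.20 to 9.76, 9.75 and 9.67. Col4a1, its usual partner, was 0.24 ± 0.10 higher without passing. Col6a6, a chain of beaded-filament collagen that was not in the list, fell 2.11-fold (-1.07, SE 0.14, adjusted p = 0.00447), from 5.71, 5.93 and 6.05 to 4.57, 4.93 and 4.97. The fibrillar chains Col1a1 and Col3a1 differed by -0.05 ± 0.13 and 0.03 ± 0.08, and both turned sign without 1 array, Col1a1 to 0.07 without shunt array 3 and Col3a1 to -0.04 without shunt array 1. Of other matrix genes, Gpc4, a glypican, rose by 0.63 and Hmcn1, hemicentin, and Fndc1 fell by 0.51 and 0.34, in 2 and 5 of the 12 fits. Of the proteoglycans 0 of 11, and of the proteases, inhibitors and crosslinking enzymes 0 of 36, passed in limma, while 2 and 8 had an unadjusted p under 0.05. Their medians were 0.13 and 0.04. Osteoglycin (Ogn), chosen after its values were seen, had probe sets that disagreed in sign: its brightest differed by -0.13 ± 0.06 without passing (adjusted p = 0.331), and its other passing probe sets rose by 0.72 ± 0.12 and 0.55 ± 0.10.

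Shunt array 3 lay below the other shunt arrays over the matrix lists and over several cell type lists. On average over the genes of a list, the matricellular list was 0.38, 0.30 and 0.07 above the sham mean on shunt arrays 1, 2 and 3. The collagen list was at 0.41, 0.23 and -0.04, and the TGF-beta and BMP list at 0.31, 0.28 and -0.03. Macrophage markers moved the same way, at 0.32, 0.36 and -0.15, as did fibroblast markers, at 0.25, 0.25 and -0.06, erythroid markers, at 0.27, 0.14 and -0.08, and mesothelial markers, at 0.11, 0.15 and -0.29. Without shunt array 3, genes that passed numbered 159 higher and 141 lower. Of these, 173 had not passed with all arrays, 103 of them higher. Genes that passed in both fits moved as well. Thbs4, Ltbp2, Meox1 and Scn4b stood at 3.28, 1.56, 1.47 and -1.42 without the array. With it they stood at 2.86, 1.30, 1.12 and -1.18. Gpr15lg changed less without the array, at -1.52 against -1.68 with it. The genes named next were chosen after their values were seen, each with its difference without and with shunt array 3 and the adjusted p with it. Among the rises the network-forming collagen Col8a1 stood at 2.22 and 1.69 (0.133) and the Wnt antagonist Frzb at 1.88 and 1.40 (0.0727). The protease inhibitor Serpine2 stood at 1.25 and 0.91 (0.115), Bmp4 at 0.98 and 0.77 (0.0513), biglycan (Bgn) at 0.77 and 0.62 (0.0558) and elastin (Eln) at 0.77 and 0.56 (0.109). The blood cell genes Hba-a3, Alas2 and Hbb stood at 1.06, 1.00 and 0.60 without the array and at 0.71, 0.52 and 0.36 with it (0.176, 0.471 and 0.361). Among the falls Fam216b stood at -1.44 and -1.09 (0.0521), the uncharacterised LOC102554253 at -1.13 and -0.90 (0.0657), Ramp1, a subunit of the receptor for calcitonin gene-related peptide, at -0.97 and -0.72 (0.14) and Efhd1 at -0.93 and -0.72 (0.0999).

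The TGF-beta and BMP list had 1 of 34 genes higher, Ltbp2, and a median of 0.12. Smad9, a receptor-activated transducer of BMP signals that was in no list, rose by 0.91 ± 0.16 (adjusted p = 0.023), from 5.37, 5.40 and 5.32 to 6.41, 6.54 and 5.87. It was lost in 5 of the 12 fits without 1 array, each of them without an atrial array other than shunt array 3. Alpl, the tissue-nonspecific alkaline phosphatase, rose by 0.75 ± 0.12, from 6.68, 6.44 and 6.54 to 7.36, 7.55 and 7.01. Tnfrsf11b, osteoprotegerin, the decoy receptor of RANK ligand, rose by 0.73 ± 0.14, while Ankh, a pyrophosphate transporter, fell by 0.36 (SE 0.07). A probe set of Id2, a target of BMP signals, other than its brightest and chosen after its values were seen, rose by 0.91 ± 0.18.

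H19, Igf2 and Igfbp3 of the insulin-like growth factor list fell. H19, the imprinted non-coding RNA expressed from the locus it shares with Igf2, read 9.31, 9.57 and 9.28 in sham and 6.91, 7.71 and 7.44 in shunt pools, the largest fall among genes represented by their brightest probe set (4.10-fold; -2.04, SE 0.19, adjusted p = 0.000805). Igf2, which encodes the fetal growth factor, fell 1.83-fold (-0.87, SE 0.10), from 7.81, 7.91 and 7.95 to 6.83, 7.01 and 7.21. Igfbp3, the main carrier of these factors in blood, fell 2.34-fold (-1.23, SE 0.13, adjusted p = 0.00228), from 7.12, 7.40 and 7.36 to 5.92, 6.17 and 6.11. All 3 passed in every leave-one-out fit, and H19 was the least even, with shunt pools from 6.91 to 7.71. They were 3 of 21 genes in the list, against 0.811% of all genes that fell. The lists were chosen with earlier results of these data known, so this share and those of the other lists are descriptions and not support. No member rose, 14 were negative and 7 positive, and the list's median was -0.19. A further Igfbp3 probe set fell by 1.01, and a probe set of Igf1 other than its brightest, chosen after its values were seen, fell by 0.46 (SE 0.10).

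Several genes known to respond to a stimulus within hours fell. Rasd1, a Ras-like protein induced by dexamethasone, read 7.15, 7.18 and 7.38 in sham and 5.19, 5.44 and 5.24 in shunt pools, a 3.85-fold fall (-1.95, SE 0.17, adjusted p = 0.000483). Pdk4, Errfi1, an inhibitor of the EGF receptor, and Ptgds, which makes prostaglandin D, fell as well, 4 of 28 members of the glucocorticoid-responsive list, against 0.811% of all genes. Of the 28, 24 were negative, against 5614 of all 10606 genes, and the median was -0.15. Errfi1 fell by 0.49 (SE 0.10), in 4 of the 12 fits. Ptgds fell by 1.03 (SE 0.20, adjusted p = 0.0328), from an uneven 6.53, 7.54 and 6.97 to 5.97, 5.98 and 6.0, and its call was lost in 6 of the 12 fits that left out 1 array, with the smallest fall, 0.77, without sham array 2.

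The orphan nuclear receptors Nr4a1 and Nr4a3 are immediate early genes. Nr4a1 read 9.10, 7.71 and 8.19 in sham and 6.82, 6.53 and 6.73 in shunt pools, a 3.12-fold fall (-1.64, SE 0.26, adjusted p = 0.0121) that was lost without shunt array 2 (-1.56, adjusted p = 0.0509). Nr4a3 read 6.36, 5.51 and 5.48 in sham and 4.52, 4.57 and 4.13 in shunt pools, a 2.60-fold fall (-1.38, SE 0.20, adjusted p = 0.00859). Its other passing probe set fell further, 5.18-fold (-2.37, SE 0.37, adjusted p = 0.0125), from 7.47, 5.51 and 5.88 to 4.19, 3.88 and 3.68. In both, sham array 1 was the highest of its group. The same array was also 0.24 above the sham mean over the 38 genes of the immediate early list, with sham arrays 2 and 3 at -0.17 and -0.08 and shunt arrays at -0.17, -0.15 and -0.35, so the list's groups overlapped. Of the list 2 genes fell, and its median was -0.10. Hspa1a, the inducible heat shock protein, fell by 0.57 (SE 0.08, adjusted p = 0.00514), from 8.31, 8.21 and 8.21 to 7.64, 7.75 and 7.63. It was the only 1 of 31 chaperone genes that passed, 26 of them were negative, and the shunt arrays stood alike at -0.15, -0.15 and -0.15 over the list. Npas2, a clock transcription factor, fell by 0.58 (SE 0.09), the only 1 of 19 clock genes that passed.

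**Figure D3:**
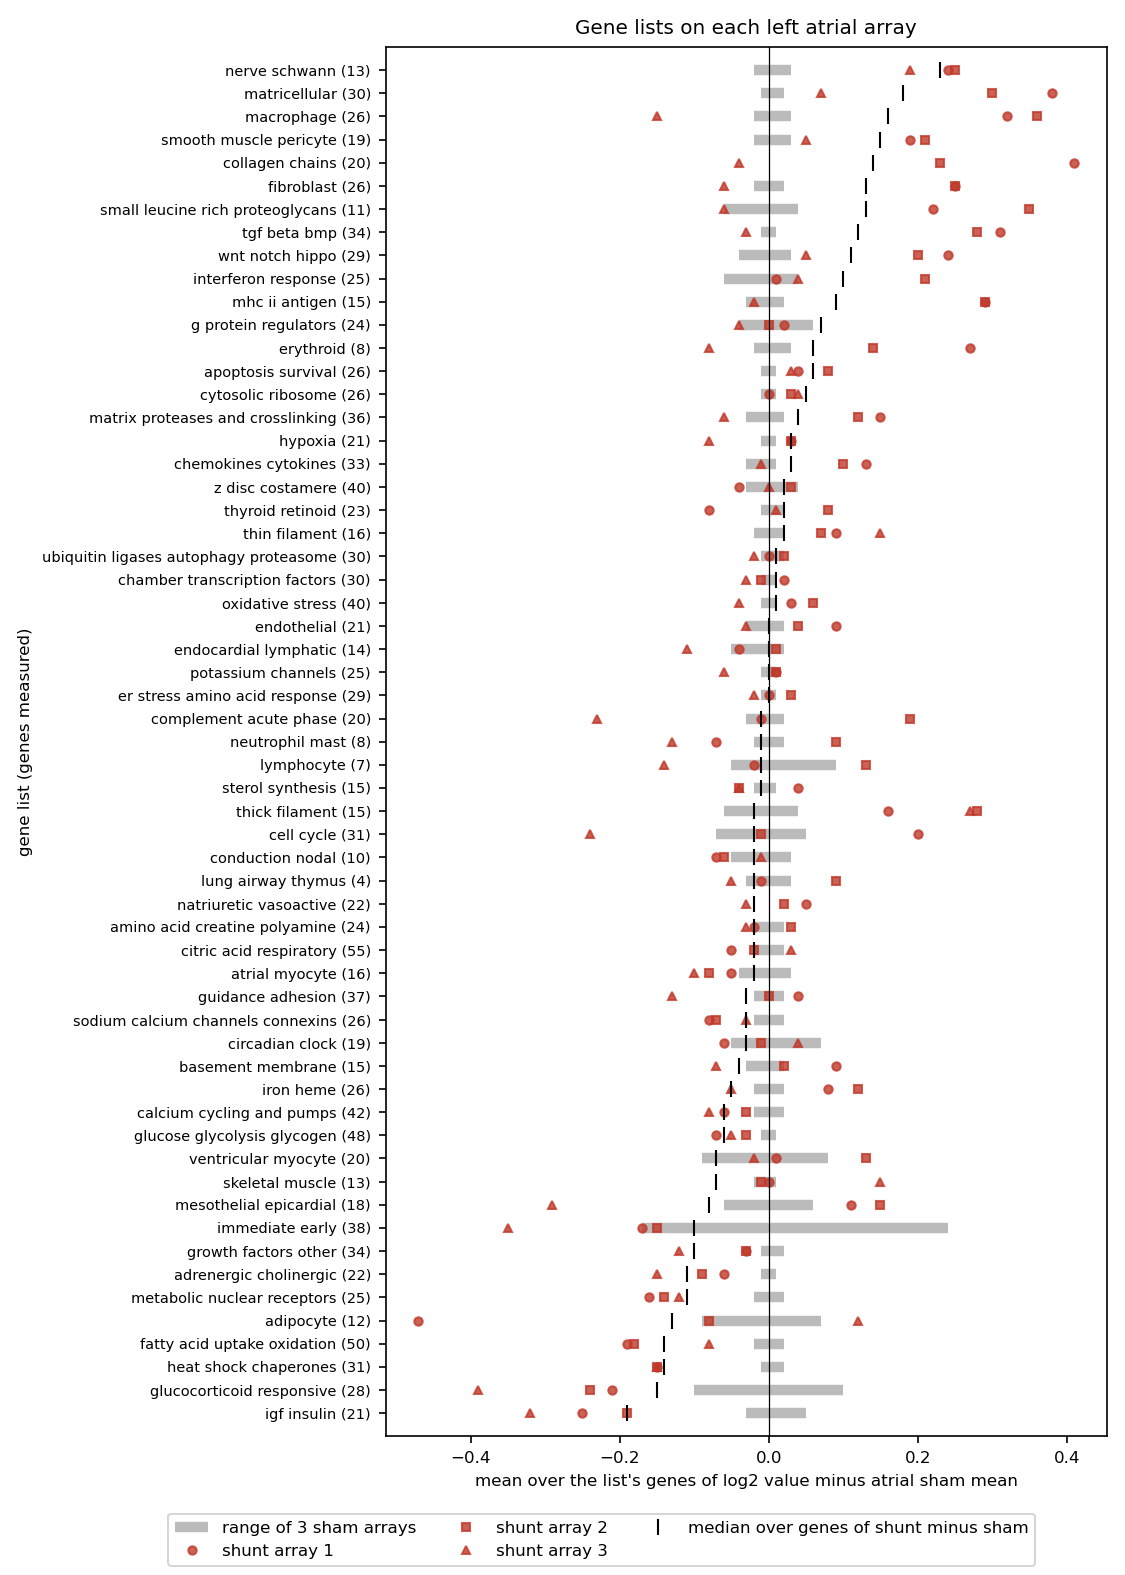
Mean over the genes of each list of the log2 value minus the atrial sham mean (horizontal axis), for all 59 lists, with the number of genes measured in parentheses; red symbols are the 3 shunt arrays, the grey bar is the range of the 3 sham arrays, and the black tick is the median over genes of shunt minus sham. The insulin-like growth factor list has the lowest median, -0.19, and the nerve and Schwann list the highest, 0.23, and shunt array 3 (triangles) falls below the other shunt arrays for the macrophage, fibroblast and collagen lists.

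Pdk4, Lpin1 and Perm1, which bear on fuel use, fell, and no respiratory chain gene passed. Pdk4, the kinase that blocks entry of pyruvate into oxidation and is a classic target of PPAR receptors, read 8.54, 8.54 and 8.56 in sham and 7.68, 7.51 and 7.69 in shunt pools. Both groups were tight, and the 1.89-fold fall (-0.92, SE 0.08, adjusted p = 0.000483) passed in all 12 fits that left out 1 array. Lpin1, an enzyme of lipid synthesis and a coactivator of PPAR-alpha, fell 1.90-fold (-0.93, SE 0.11, adjusted p = 0.00277), from 8.88, 8.65 and 8.92 to 7.87, 7.85 and 7.95. Perm1, a muscle factor induced by PGC-1 and ERR, fell by 0.55 (SE 0.08, adjusted p = 0.00858), from 9.23, 9.21 and 9.18 to 8.68, 8.60 and 8.68. With Rxrg, a retinoid X receptor, which fell by 0.41 but held in only 1 of the 12 fits, 3 of 25 metabolic nuclear receptor genes fell, against 0.811% of all genes, and 0 rose, with a median of -0.11. In fatty acid uptake and oxidation 2 of 50 genes fell, Pdk4 and the binding protein Fabp5 (-0.40, SE 0.07), against 0.811% of all genes. Of the 50, 41 were negative, against 5614 of all 10606 genes, and the median was -0.14. The arrays stood at -0.19, -0.18 and -0.08 over this list. Probe sets of Cpt1a, Acot2 and Acsl1 other than their brightest, chosen after their values were seen, fell by 0.58, 0.52 and 0.42. Of 55 genes of the citric acid cycle and respiratory chain, 0 passed in limma and 5 had an unadjusted p under 0.05, 33 were negative, and the median was -0.02. Of 48 genes of glucose use Pfkp, the platelet isoform of phosphofructokinase, rose by 0.46 ± 0.10, in 2 of the 12 fits without 1 array, and Pdk4 fell.

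Other metabolic genes outside these lists changed as well. Retsat, which saturates retinol, fell 2.17-fold (-1.12, SE 0.23, adjusted p = 0.0405), from 8.39, 8.87 and 8.68 to 7.35, 7.52 and 7.70, and passed in only 4 of the 12 fits. Aldh1b1, a mitochondrial aldehyde dehydrogenase, read 5.77, 6.18 and 5.81 in sham and 4.81, 4.85 and 5.22 in shunt pools (-0.96, SE 0.16). Nmrk2, the muscle kinase that feeds nicotinamide riboside into NAD, fell by 0.84 (SE 0.09, adjusted p = 0.00228), from 7.37, 7.32 and 7.63 to 6.65, 6.57 and 6.59. Stbd1, which tethers glycogen to membranes, fell by 0.64 (SE 0.09), and Slc38a3, a glutamine transporter, by 0.57 (SE 0.08). In creatine and amino acid metabolism, Gamt, the last enzyme of creatine synthesis, fell by 0.56 and Slc6a6, the taurine transporter, rose by 0.70 ± 0.09. Slc16a12, a creatine transporter in no list, rose 2.30-fold, from 5.98, 6.71 and 6.53 to 7.67, 7.55 and 7.60 (1.20 ± 0.19, adjusted p = 0.014), and a further probe set of the gene rose by 1.27. In purine metabolism Pfas, an enzyme of de novo synthesis, rose by 0.79 ± 0.12, and Adss1, the muscle enzyme of the purine nucleotide cycle, fell by 0.49 (SE 0.10) but held in 1 of the 12 fits. Hamp, hepcidin, the hormone that degrades the iron exporter ferroportin, read 9.45, 8.89 and 9.07 in sham and 11.23, 11.28 and 10.81 in shunt pools. It rose 3.93-fold (1.97 ± 0.36, adjusted p = 0.0249) as the only 1 of 26 iron and heme genes that passed, and in ventricle it read lower, at 5.03 to 7.03. The Hamp call was lost without atrial shunt array 1 or 2 or sham array 2 or 3, with adjusted p-values of 0.083 to 0.117 and differences of 1.85 to 1.94.

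In the vessel, nerve, immune and fibroblast lists the genes that passed all rose. Outside these lists Il2rb, an interleukin receptor chain, fell by 0.50 (SE 0.09), in 9 of the 12 fits. Cntf, a neurotrophic factor, fell by 0.58 (SE 0.11), in 4 of the 12 fits. Angpt2, a ligand of the endothelial receptor Tie2, rose by 0.81 ± 0.16, from 5.96, 5.95 and 5.89 to 7.03, 6.76 and 6.45, in 6 of the 12 fits. It is in the growth factor list, in which Fgf12 fell. Mcam and Myl9 were the 2 of 19 smooth muscle and pericyte genes that rose, by 0.55 and 0.51, against 0.585% of all genes. Of 21 endothelial genes 0 passed in limma and 4 had an unadjusted p under 0.05. Prph, peripherin, an intermediate filament of peripheral neurons, read 4.82, 4.95 and 4.98 in sham and 5.47, 5.99 and 5.97 in shunt pools (0.90 ± 0.12, adjusted p = 0.00546). With Cnp, a myelin enzyme, which rose by 0.53 but held in only 2 of the 12 fits, 2 of 13 nerve and Schwann genes rose, against 0.585% of all genes, and the arrays stood at 0.24, 0.25 and 0.19. Among immune genes, the class II histocompatibility gene RT1-Da rose by 0.62 ± 0.11, 1 of 15 in its list. The chemokine Ccl19 and the receptor Cxcr4 rose by 0.42 and 0.57, 2 of 33 in theirs, and each held in 2 of the 12 fits. Of 26 macrophage genes 0 passed in limma with all arrays and 4 had an unadjusted p under 0.05. Of the 26, 23 were positive, and 3 passed without shunt array 3: Lyz2, Mpeg1 and Cybb. Meox1, a homeobox factor, S100a4, Thy1 and Cthrc1 were 4 of 26 fibroblast genes that rose, against 0.585% of all genes. In this list 17 genes were positive and 9 negative, the median was 0.13, and 0 passed with the atrial arrays alone. S100a4 passed in 10, Thy1 in 5 and Cthrc1 in 1 of the 12 fits. Meox1 read 4.22, 4.18 and 4.14 in sham and 5.59, 5.70 and 4.60 in shunt pools (1.12 ± 0.24, adjusted p = 0.0442), and passed in only 1 of the 12 fits, the one without shunt array 3.

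Summed levels of marker lists are given beside these changes. A sum is weighted towards the genes of highest value, so it does not measure cell numbers. The summed linear level was 25502 to 26032 in sham and 24022 to 28403 in shunt atria for the fibroblast list, and 3223 to 3344 and 3040 to 4341 for the macrophage list. Smooth muscle and pericyte markers summed to 7864 to 8222 and 8639 to 9410, the only one of these lists in which all shunt arrays lay above all sham arrays. That list holds Des and Synpo2, which are also in the Z-disc list. They read 11.28 and 10.15 in sham and 11.31 and 10.30 in shunt atria. Also in the list are Myl9, which passed by itself, at 10.15 in sham and 10.65 in shunt atria, and Acta2, at 6.79 and 6.88. The part of each gene in the summed rise was not tested. Nerve and Schwann markers summed to 1258 to 1338 and 1311 to 1609, mesothelial and epicardial markers to 1897 to 2122 and 1589 to 2250, and adipocyte markers to 15229 to 16304 and 14234 to 16479. Erythroid markers summed to 4359 to 4860 in sham and 4316 to 7189 in shunt atria, and 0 of 8 passed in limma while 2 had an unadjusted p under 0.05. Sbsn, a secreted epithelial protein, rose by 1.21 ± 0.24 and Krt19, an epithelial keratin, fell by 0.63 (SE 0.13), both of the mesothelial list of 18. Sbsn passed in 4 and Krt19 in 1 of the 12 fits. The part of any change in cell make-up in these results was not tested.

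Of the 148 genes, 92 were in no list, and some of the largest falls were among them. Gpr15lg, a secreted ligand of the receptor GPR15, read 6.93, 6.88 and 7.0 in sham and 5.32, 5.51 and 4.94 in shunt pools, a 3.21-fold fall (-1.68, SE 0.14, adjusted p = 0.000483). Epb41l3, a protein 4.1 of the membrane skeleton, fell 2.31-fold (-1.21, SE 0.15), from 6.61, 7.11 and 7.37 to 5.99, 5.65 and 5.81. Iqgap2, a scaffold for small GTPases, fell 2.18-fold (-1.13, SE 0.13), from 6.37, 6.64 and 6.61 to 5.21, 5.38 and 5.65. In all 3 the groups lay well apart, and each passed in all 12 fits that left out 1 array. Wfdc1, a secreted protein with a protease inhibitor fold, fell by 0.96 (SE 0.16), from 6.50, 6.60 and 6.83 to 5.92, 5.81 and 5.32. Slc17a7, a vesicular glutamate transporter, and Srpx fell by 0.93 and 0.75. Slc22a3, the extraneuronal transporter of catecholamines, fell by 0.74, and Lynx1, a modulator of nicotinic receptors, by 0.55. The uncharacterised LOC102553868 rose 2.69-fold from 6.25, 6.37 and 6.18 to 7.93, 7.81 and 7.34, and LOC102554187 by 0.83, from 6.12, 5.80 and 6.13 to 6.87, 6.61 and 7.05. LOC100911508 fell by 1.06, from 6.75, 7.18 and 6.85 to 5.75, 5.48 and 6.38, and held in 2 of the 12 fits.

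In the left ventricle of the same study fewer genes passed, 12 by the same test (0.113%). The ventricular differences come from ventricular arrays alone, but the filter and the standard errors are shared by all 12 arrays. Of the 62 atrial rises 55 (88.7%) had a positive ventricular difference, and of the 86 falls 69 (80.2%) had a negative one, against 50% of all genes in each direction. Whether the atria and ventricles came from the same rats is not stated. These shares are therefore descriptions and not independent support for the atrial changes. Thbs4 read 5.15, 4.89 and 5.04 in sham and 4.93, 5.30 and 5.17 in shunt ventricle (0.11), with no gap between the groups. Acta1, Kcnip2, Myl3 and Ccn2 differed there by 0.13, 0.05, 0.05 and 0.08, and Scn4b, Gpr15lg, Epb41l3 and Nr4a3 by -0.08, -0.12, -0.10 and -0.06. Other genes moved in ventricle as well, such as Slc24a3 (-0.77 in both chambers, ventricular adjusted p = 0.0119) and Wfdc1 (-1.24, adjusted p = 0.0209). Myh7 differed by 0.98 (adjusted p = 0.0672) and Nr4a1 by -1.0 (adjusted p = 0.125) in ventricle without passing. When the atrial and ventricular effects were compared directly, 0 genes passed in limma (0%), the smallest adjusted p over probe sets was 0.0854, and 1229 probe sets (6.60%) had an unadjusted p under 0.05. None of the atrial changes is thus shown to differ from the ventricular one with all arrays. Without atrial shunt array 3, 19 probe sets passed this test, among them Scn4b, Gpr15lg, Ltbp2, Thbs4, Alpl, Meox1 and S100a4.

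**Figure D4:**
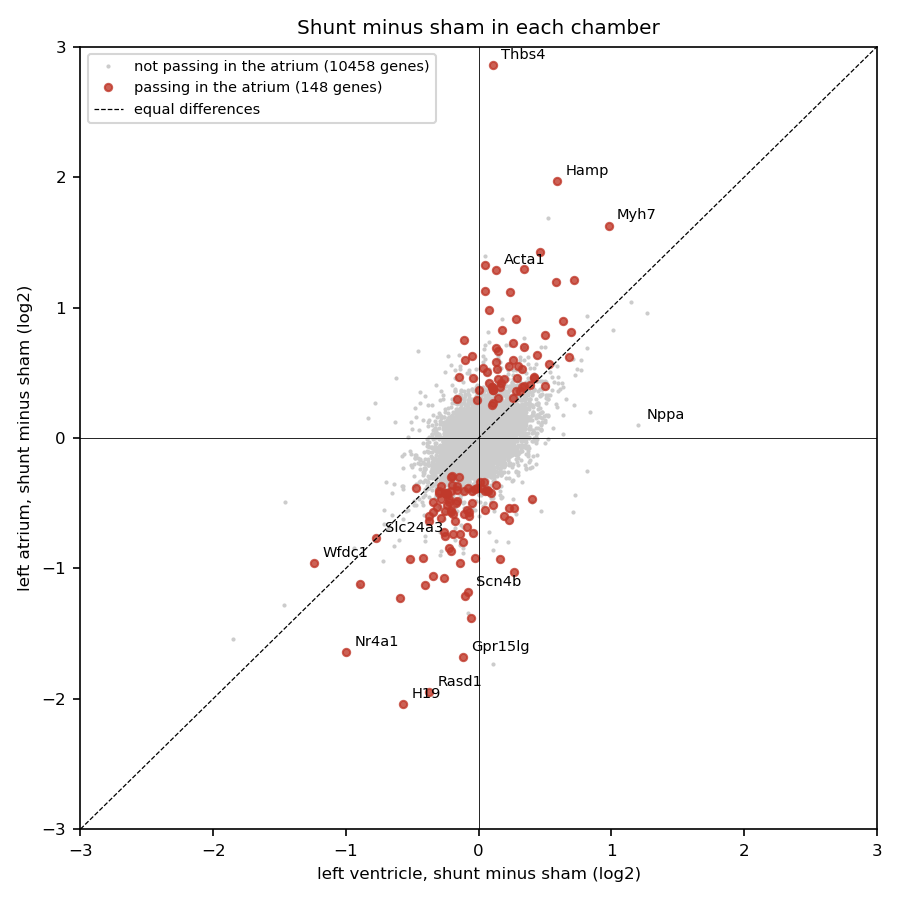
Shunt minus sham difference (log2) of 10606 genes in left ventricle (horizontal axis) and left atrium (vertical axis), from 3 pools per group; red points are the 148 genes that passed in atrium, grey points all others, and the dashed line marks equal differences. Thbs4, Gpr15lg and Rasd1 lie near 0 on the ventricular axis compared with their atrial change, Slc24a3 and Wfdc1 lie near the dashed line, and Nppa lies at 0.10 in atrium and 1.20 in ventricle.

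The atrial calls rest on few pools, and how many held varied with the array left out. All 148 genes kept their direction in every alternative fit in which they were tested, but 33 passed in all 12 fits that left out 1 array. Leaving out atrial shunt arrays 1, 2 or 3 kept 52, 46 and 127 of the 148, and leaving out sham arrays 1, 2 or 3 kept 67, 42 and 40. With the 6 atrial arrays alone 27 passed, 10 higher and 17 lower, among them Hamp, Myh7, Acta1, Ccn2, Col4a2, Pdk4, Igf2, H19, Rasd1 and Gpr15lg. Among those lost there were Thbs4 (adjusted p = 0.0978), Kcnip2 (0.112), Ltbp2 (0.0826), Scn4b (0.084), Myl3 (0.162), Nr4a1 (0.114), Nr4a3 (0.101), Epb41l3 (0.0761) and Slc16a12 (0.0616), with the same differences as with all arrays.

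**Figure D5:**
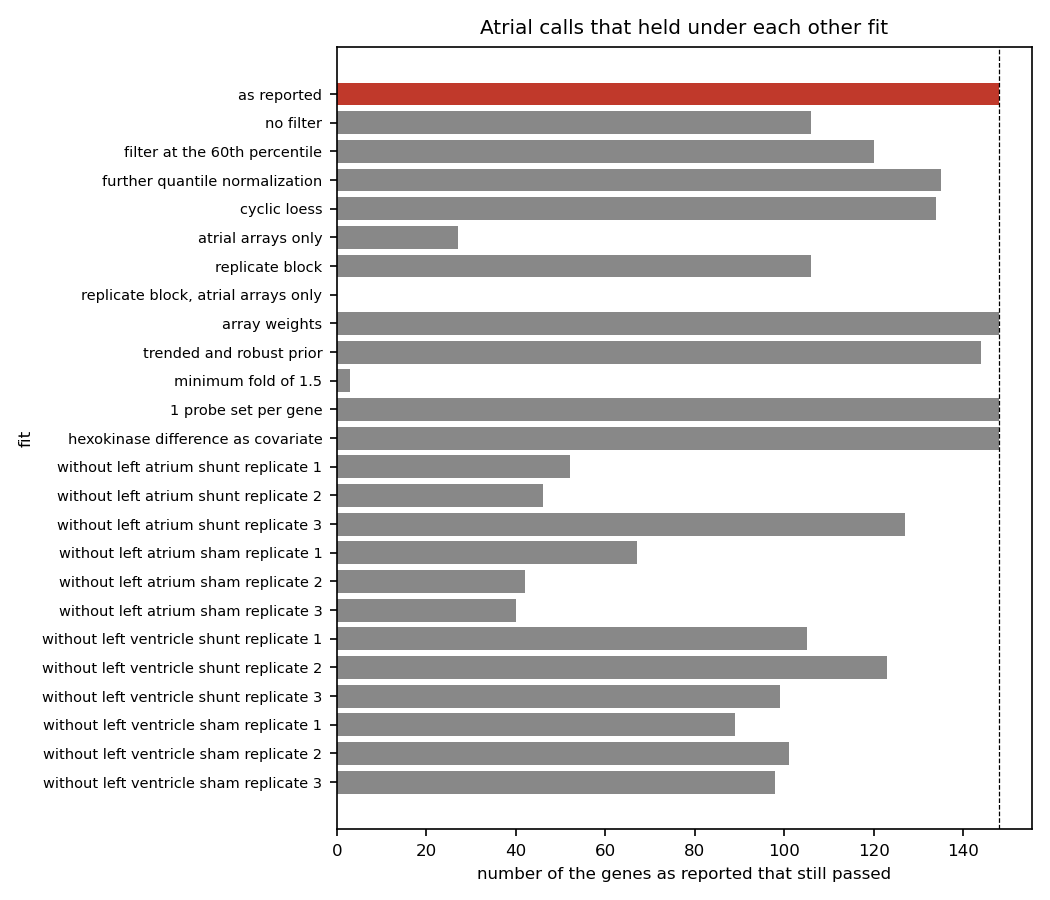
Number of the 148 atrial genes that still passed (horizontal axis) in each other fit (vertical axis); the red bar and dashed line are the result as reported. Fits with array weights, the hexokinase covariate or 1 probe set per gene kept all 148, the atrial arrays alone kept 27, and the atrial arrays alone with a replicate block kept 0.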

How the data were processed

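The authors deposited 1 log2 value per probe set for each of 12 one-colour Affymetrix arrays. The values are RMA values per the submitters' processing notes. The RMA version, the array software and the set of arrays normalized together are not given in the sources used here. Labelled cRNA was made from 10 ug of total RNA, per the labels' protocols. No further normalization was applied. RMA equalises the distribution of values across the arrays it processes, so a shift of most genes in 1 direction would not be visible.

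The 57 control probe sets were left out, and 18625 probe sets with a mean over 12 arrays at or above the 40th percentile (4.01) were tested. Symbols came from the platform annotation, updated by Entrez identifier to the GRCr8 gene table: 20826 probe sets had 1 symbol, 436 several and 9780 none, and only those with 1 were named. The brightest tested probe set stood for its gene, 10606 genes in all.

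Limma 3.58.1 (lmFit and eBayes, R 4.3.3) was fitted with 1 mean per group over all 12 arrays, which leaves 8 residual degrees of freedom. Two-sided p-values were adjusted by Benjamini and Hochberg's method over all probe sets tested, and the threshold was 0.05. Errors are standard errors of that fit. Precision is limited by having 3 arrays per group. The code was tested on simulated data. Alternatives were the filter, further quantile or cyclic loess normalization, atrial arrays only, a replicate block, array weights, a minimum fold of 1.5, a trended and robust prior, the hexokinase difference as a covariate, testing 1 probe set per gene, averaging probe sets for lists, and leaving out each array.

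The comparison and the 59 gene lists (1750 genes, 1286 measured) were chosen with earlier results of these data known. The share of a list that passed is therefore a description and not a test. A gene can be counted in several lists, as Pdk4 is. Any gene that passed could be named. The 15 largest rises and 15 largest falls with separate arrays were given in full, with passing list members, the 1 or 2 members of smallest p where fewer than 2 of a list passed, and fixed load, calcium and collagen genes. Exceptions are marked in the text. The text gives part of these. Summed list levels are sums over genes of 2 to the power of the log2 value.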

Additional observations from a re-analysis of the deposited data

How the results depend on the processing

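With all arrays 89 probe sets were higher and 154 lower, for 148 genes. Fitting the atrial arrays alone gave 14 higher, 29 lower and 27 genes, and a replicate block within the atrial arrays gave 0, 0 and 0 by limma, with few residual degrees of freedom. The replicate block over all arrays gave 208 probe sets. Deviations from the group mean on same-numbered atrial shunt and atrial sham arrays correlated at -0.101, -0.0229 and -0.0794. The numbers are not treated as pairs. Whether atrial and ventricular pools of the same number came from the same rats is not stated, and these correlations do not bear on it. A minimum fold of 1.5 left 0 higher, 3 lower and 3 genes. Calls rose with array weights (402, 508 and 588 genes), the trended and robust prior (150, 276 and 277) and the hexokinase covariate (327, 431 and 449). The filter at the 60th percentile gave 229 genes and 1 probe set per gene gave 227, both with fewer tests. Leaving out 1 array gave 22 to 246 probe sets higher, 44 to 223 lower and 43 to 300 genes, with the highest counts without atrial shunt array 3. There 52.5% of the calls were higher, against 36.6% with all arrays.

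For the atrial minus ventricular effect, probe sets passing were 0 with all arrays, 11 with array weights, 1 each with the robust prior, the covariate and 1 probe set per gene, and 0 to 19 without 1 array. Genes near 0 changed sign without passing: Myh6 (-0.06 quantile, -0.02 loess, -0.01 to 0.04 without 1 array), Sln (-0.02 quantile, -0.01 weights, -0.03 to 0.05), Pln (-0.01 loess, -0.01 weights, -0.01 to 0.04), Col1a1 (0.01 weights, -0.14 to 0.07) and Col3a1 (-0.04 to 0.10). Where fewer samples or tests do not show it, the cause was not tested. Arrays that left a group with 2 pools share the spread of the other groups.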

Other observations

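Of the 243 probe sets that passed, 148 represented a gene, 43 had no single gene name here, 20 were further probe sets of the 148 genes and 32 were further probe sets of 29 genes whose brightest probe set did not pass. For 38 of the 148 genes more than 1 probe set was tested. Of their 51 further probe sets 44 had the same sign and 20 passed, and in 32 genes all probe sets had the same sign. The genes below were chosen after their values were seen. Among the 29 genes, Ccnd1, the cyclin that starts the cell cycle, rose by 0.58 and Mbp, a myelin protein, by 0.70, while probe sets of the chemokine Cxcl12 fell by 0.43 and 0.68. Adcy6, a cardiac adenylyl cyclase, fell by 0.57, Jund, an AP-1 factor, by 1.05, and Itga7, the laminin-binding integrin of muscle, by 0.38. The brightest probe sets of Mbp and Cxcl12 had the opposite sign without passing, at -0.05 and 0.01. Those of Adcy6 and Itga7 had the same sign but were smaller and did not pass, at -0.08 (limma adjusted p = 0.647) and -0.18 (0.323).

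Without atrial shunt array 3, other genes than those named above passed that did not pass with all arrays. Among them the ventricular light chain Myl2 rose by 0.88, the lysozyme gene Lyz2 by 0.84, the class II chain RT1-Db1 by 0.85 and the proteoglycan asporin (Aspn) by 0.69. With all arrays Myl2 stood at 0.71, Lyz2 at 0.62, RT1-Db1 at 0.52 and Aspn at 0.49, with adjusted p-values of 0.0993, 0.0657, 0.308 and 0.138.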
